A study of Bos taurus with 9 samples.

Results

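The simple epithelial keratins *KRT8*, *KRT18*, *KRT19* and *KRT7* were taken by gene symbol from a table of transcript levels in D8 bovine blastocysts, and all 4 were among its 21512 genes. The table holds 9 individual blastocysts, 5 wild type (WT) and 4 *TEAD4* knockout (KO, labelled TEAD4-/-), with 1 library per embryo. WT embryos came from oocytes injected with *Cas9* mRNA alone, and KO embryos from oocytes that also received a guide RNA against *TEAD4* and were found to carry frame-disrupting alleles only. All were fertilized in vitro with semen of a single bull and cultured to day 8. The indels arose at random, so that each KO embryo is an editing event of its own, and RNA was taken from the whole blastocyst, trophectoderm (TE) and inner cell mass together. The libraries are named WT_1 to WT_5 and TE_1 to TE_4, where TE_ marks *TEAD4* KO embryos and not trophectoderm. The comparison of WT with KO asks whether the loss of TEAD4 alters the transcripts of the keratins that a bovine blastocyst uses.

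Keratins are the intermediate filament proteins of epithelia, and a filament is built from pairs of a type I and a type II chain. KRT8 and KRT7 are type II chains, and KRT18 and KRT19 are type I chains. KRT8 and KRT18 are the first keratins of the mammalian embryo and are known for their place in the TE, the first epithelium to form; KRT19 can pair with KRT8 in simple epithelia, and KRT7 marks ducts and the human trophoblast. In the RefSeq annotation of the cattle genome (ARS-UCD2.0), *KRT18* and *KRT8* are neighbours with no coding gene between them, although they encode chains of different type. *KRT7* lies on the same chromosome with 32 coding genes between it and *KRT8*, 24 of them with a keratin symbol, and *KRT19* lies on another chromosome between *KRT15* and *KRT9*.

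Values are TPM, a transcript abundance that is corrected for transcript length and sums to 1000000 in each library, so that genes can be compared within a library. TPM does not keep the number of reads, so the depth behind each value is unknown. The WT libraries had between 14807 and 16678 genes above 0 TPM (mean 16011), and the KO libraries between 14776 and 15375 (mean 15119). The part of this in the differences between genotypes was not tested. *TEAD4*, the targeted gene, was found in every library, at 18.0 to 54.3 TPM in WT and 12.5 to 42.8 TPM in KO (log2 difference between KO and WT -0.51, standard error (SE) 0.42, limma adjusted p = 0.947). TPM does not show whether a transcript carries an indel, so this level does not check the genotypes. All 5 TE markers looked up were detected, at a summed 340 to 694 TPM in WT and 343 to 833 TPM in KO, as were all 6 epiblast markers, at a summed 876 to 2326 TPM and 1413 to 2303 TPM. Of 6 hypoblast markers 5 were detected, at 82.4 to 147 TPM in WT and 45.3 to 152 TPM in KO. Of 6 cumulus cell markers 4 were detected, with sums of 19.3 to 37.1 TPM in WT and 4.19 to 30.8 TPM in KO, and of 5 fibroblast markers 4 were detected, with sums of 7.72 to 30.3 TPM and 4.54 to 17.8 TPM, with *COL3A1* at 0 in every library.

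*KRT8* and *KRT18* were among the most abundant transcripts of the blastocyst. Averaged over the 9 libraries, *KRT8* was at 6696 ± 3074 TPM (SD, n = 9) and ranked 8 among all genes. *KRT18* was at 3333 ± 1546 TPM (SD, n = 9) and ranked 27, *KRT19* at 1132 ± 735 TPM (SD, n = 9) and ranked 158, and *KRT7* at 71.2 ± 58.5 TPM (SD, n = 9) and ranked 2134. In WT_1, *KRT8* was the most abundant transcript of the library, and its lowest place was 40, in WT_4. *KRT18* ranked between 13 and 167, *KRT19* between 58 and 814 and *KRT7* between 1073 and 7093 in single libraries.

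The order *KRT8*, *KRT18*, *KRT19*, *KRT7* was found in 9 of 9 embryos. The level of *KRT8* was 1.27 to 3.29 times that of *KRT18* in the same embryo, with a median of 2.04. *KRT18* was 1.18 to 6.10 times as high as *KRT19*, and *KRT19* 1.34 to 284 times as high as *KRT7*. Within embryos, the log2 ratio of each neighbour to the next differed from 0, with p = 0.00391 for each of the 3 ratios (exact sign-flip permutation test within libraries, two-sided, n = 9; also 0.00391 after adjustment over the 3). This is the smallest p that 9 embryos allow, reached when all ratios share a sign. The order tested was itself taken from the mean TPM of these 9 libraries, so the p values are no independent support for it. Between embryos, levels overlapped for *KRT8* (lowest 2721 TPM) and *KRT18* (highest 5631 TPM). They also did for *KRT18* (lowest 1108 TPM) and *KRT19* (highest 2130 TPM). The embryo closest to a change of order was TE_3 for *KRT18* and *KRT19*, and TE_4 for *KRT19* and *KRT7*.

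*KRT8* overlapped between the genotypes. It stood at 11972, 9229, 4788, 2721 and 8975 TPM in the embryos WT_1 to WT_5, and in TE_1 to TE_4 its level was 5101, 8599, 3993 and 4889 TPM. The KO values lay inside the WT range, and WT embryos held both the highest and the lowest level. WT embryos averaged 7537 ± 3720 TPM (SD, n = 5) and KO embryos 5646 ± 2027 TPM (SD, n = 4). The log2 difference, on the log2(TPM + 1) scale, was -0.30 (limma, SE 0.41, adjusted p = 0.982 over all genes tested; exact permutation test, two-sided, p = 0.524). Taken back from the log2 scale this is 0.815 of the WT level, with a 95% interval from 0.438 to 1.51. The ratio of the mean TPM values, KO over WT, was 0.749. The log2 difference was -0.083 without WT_1 and -0.62 without WT_4.

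**Figure D1:**
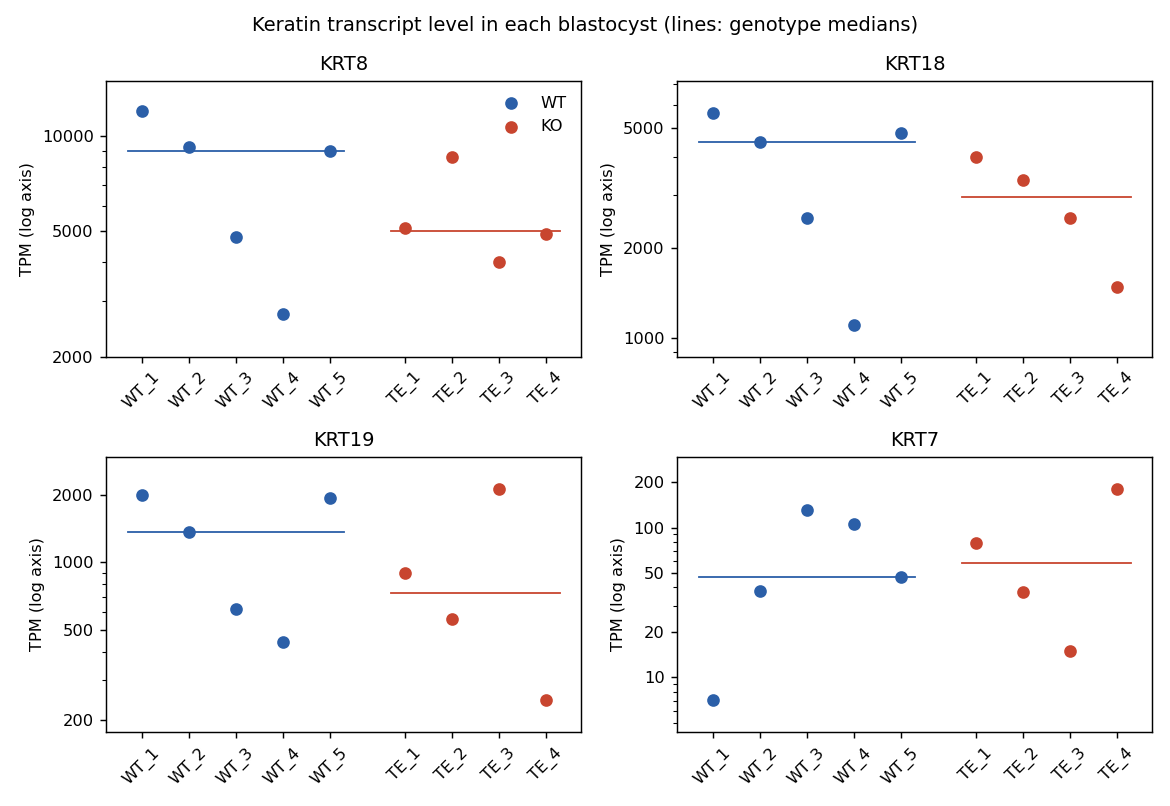
Level of each keratin in TPM (y axis, logarithmic) in the 9 blastocysts (x axis), with a point per embryo and a line at the median of each genotype (WT blue, n = 5; *TEAD4* KO red, n = 4). The genotypes overlap for each of the 4 genes, and WT_4 is the lowest embryo for *KRT8* and *KRT18*, TE_4 the lowest for *KRT19* and the highest for *KRT7*.

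*KRT18*, the main type I partner of KRT8, stood at 5631, 4518, 2511, 1108 and 4837 TPM in the embryos WT_1 to WT_5, and in TE_1 to TE_4 its level was 4022, 3372, 2516 and 1485 TPM. Again the lowest and the highest embryo were WT. WT embryos averaged 3721 ± 1859 TPM (SD, n = 5) and KO embryos 2849 ± 1098 TPM (SD, n = 4). The log2 difference was -0.27 (limma, SE 0.46, adjusted p = 0.982; exact permutation test, two-sided, p = 0.627). Taken back from the log2 scale this is 0.830 of the WT level with a 95% interval from 0.413 to 1.67. The ratio of the mean TPM values was 0.766. The log2 difference was 0.013 without TE_4 and -0.65 without WT_4.

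*KRT19*, the smaller type I chain, had the largest log2 difference of the 4, also within the spread. It stood at 1992, 1363, 622, 444 and 1928 TPM in the embryos WT_1 to WT_5, and in TE_1 to TE_4 its level was 902, 561, 2130 and 244 TPM. KO embryos were here both the highest (TE_3) and the lowest (TE_4). WT embryos averaged 1270 ± 719 TPM (SD, n = 5) and KO embryos 959 ± 826 TPM (SD, n = 4). The log2 difference was -0.59 (limma, SE 0.60, adjusted p = 0.970; exact permutation test, two-sided, p = 0.429). Taken back from the log2 scale, the KO level was 0.666 of the WT level with a 95% interval from 0.267 to 1.66. The ratio of the mean TPM values was 0.755. The log2 difference was -0.07 without TE_4 and -1.11 without TE_3.

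*KRT7* was the least abundant and the most variable of the 4. It stood at 7.02, 37.6, 132, 105 and 46.6 TPM in the embryos WT_1 to WT_5, and in TE_1 to TE_4 its level was 79.0, 36.9, 15.1 and 182 TPM. WT_1, the embryo with the highest *KRT8*, had the lowest *KRT7*. WT embryos averaged 65.6 ± 51.3 TPM (SD, n = 5) and KO embryos 78.2 ± 74.1 TPM (SD, n = 4). The log2 difference was 0.25 (limma, SE 0.82, adjusted p = 0.991; exact permutation test, two-sided, p = 0.810). The KO level was 1.19 times that of WT with a 95% interval from 0.343 to 4.11, and the difference was below 0 without WT_1 (-0.38) or without TE_4 (-0.33).

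All 4 keratins passed the filter on low values, and 0 of the 4 were called, which took a log2 difference beyond 1 in either direction and an adjusted p under 0.05. Of the 14599 genes tested, 3 were called, which is 0.0205%. The study reported more differentially expressed genes, with DESeq2 on counts and shrunken fold changes, so this share describes limma on TPM only. An unadjusted p under 0.05 was reached by none of the 4 keratins and by 5.90% of all genes. None of the 4 had all KO embryos below all WT embryos, as 1.23% of genes had, or all KO embryos above all WT embryos, as 0.801% had. The median log2 difference of all genes was -0.05, with 55.8% of genes lower in KO. The 95% intervals include KO levels from 0.438 to 1.51 of WT even for *KRT8*, so that equal levels were not shown.

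**Figure D2:**
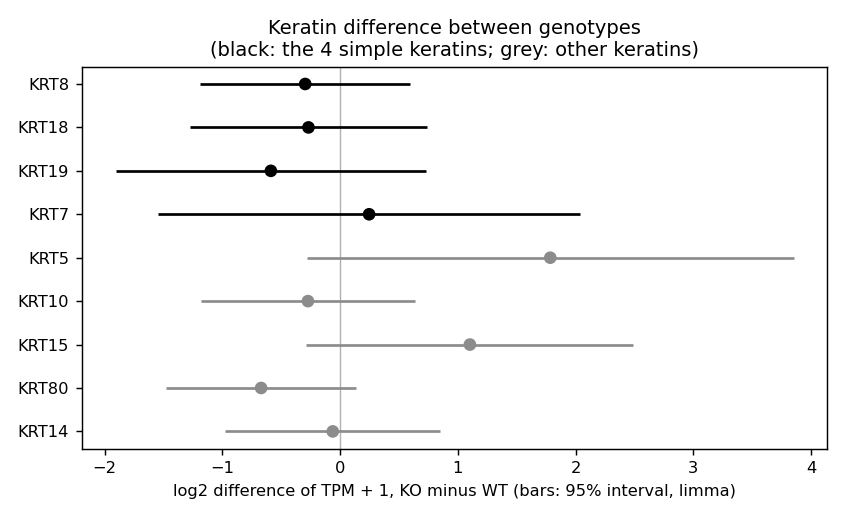
Difference of log2(TPM + 1) between *TEAD4* KO and WT blastocysts (x axis) for the 4 simple keratins (black) and the 5 other keratins with a median above 1 TPM (grey); points are limma estimates and bars their 95% intervals. Each interval includes 0, and that of *KRT5* is the widest, around 1.79.

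The embryos differed more in their keratins than in most genes. Within genotypes, the SD of log2(TPM + 1) was 0.73 for *KRT8*, 0.84 for *KRT18*, 1.13 for *KRT19* and 1.56 for *KRT7*, against a median of 0.47 over all genes tested and of 0.39 over the 1548 genes with a median above 100 TPM. Over the 11219 genes with a median above 1 TPM the median SD was 0.50. An SD lower than that of *KRT8* was found for 82.9% of the genes tested, and lower than that of *KRT7* for 98.9%. These shares include genes of low level, and shares among genes of like level were not taken. Between the embryos with the highest and the lowest level, *KRT8* differed 4.40-fold, *KRT18* 5.08-fold, *KRT19* 8.74-fold and *KRT7* 25.9-fold. The less abundant the keratin, the wider was its spread.

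Together the 4 genes held 1.96, 1.51, 0.805, 0.438 and 1.58% of all TPM in WT_1 to WT_5 and 1.01, 1.26, 0.865 and 0.680% in TE_1 to TE_4. The WT embryos spanned the whole range, and the KO embryos lay between WT_4 and WT_2. WT embryos had a mean share of 1.26 ± 0.620% (SD, n = 5), KO embryos one of 0.953 ± 0.243% (SD, n = 4). The difference of -0.306 percentage points was smaller than the pooled SD within genotypes, 0.495, and was -0.131 without WT_1 and -0.512 without WT_4; as a sum over chosen genes it was not tested. The 4 genes made up 95.1 to 99.9% of the TPM of all genes with a keratin symbol, the lowest in TE_4.

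**Figure D3:**
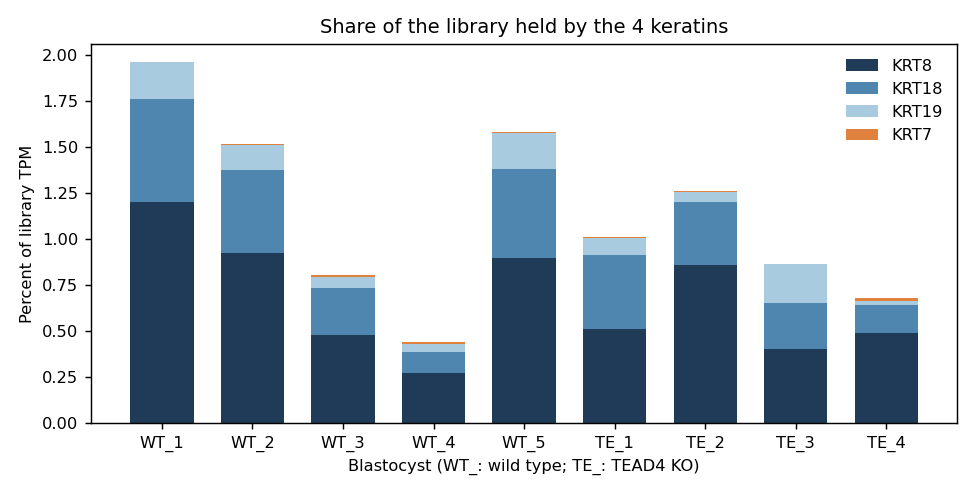
Percent of the TPM of each library (y axis) held by *KRT8*, *KRT18*, *KRT19* and *KRT7* (stacked from the bottom) in the 9 blastocysts (x axis). The bars run from 0.438% in WT_4 to 1.96% in WT_1, *KRT8* is the largest part of each, and *KRT19* is widest in TE_3.

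The make-up of this sum varied more among KO than among WT embryos in these 9 libraries. *KRT8* made up 56.9 to 62.1% of it in WT and 46.1 to 71.9% in KO embryos. *KRT19* made up 7.72 to 12.2% in WT, against 8.92, 4.46, 24.6 and 3.58% in TE_1 to TE_4. The ratio of *KRT8* to *KRT18* was 2.13, 2.04, 1.91, 2.46 and 1.86 in WT_1 to WT_5 and 1.27, 2.55, 1.59 and 3.29 in TE_1 to TE_4. In each of these measures some KO embryos were below and others above all WT embryos, and the difference in spread was not tested. The log2 ratio of *KRT8* to *KRT18*, which does not depend on how libraries are scaled, averaged 1.05 in WT and 1.02 in KO (difference -0.03, exact permutation test, two-sided, p = 0.960).

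When all keratins were summed by type, type II exceeded type I transcripts in 8 of 9 embryos. The ratio of type II to type I was between 1.33 and 1.80 in WT embryos. In KO embryos it was 1.05, 2.20, 0.861 and 3.06 in TE_1 to TE_4, so that TE_3, with its high *KRT19*, was the embryo with more type I than type II. TE_4, low in both type I chains, had the highest ratio. These are ratios of transcripts, and protein was not measured.

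*KRT8* and *KRT18* were high in the same embryos, and *KRT7* was low where *KRT19* was high. Over the 9 embryos, Pearson's r of log2(TPM + 1) for *KRT8* and *KRT18* was 0.86 (exact permutation test over all pairings, two-sided, p = 0.00253, adjusted over the 6 pairs 0.0152), with Spearman's rho of 0.90 (exact permutation p = 0.00203, adjusted 0.0122). With the mean of each genotype subtracted, r was 0.86. Without WT_1 and WT_4, the embryos farthest from the median of *KRT8*, r was 0.69 (exact permutation p = 0.0794). The relation thus rests in part on these embryos, and leaving out either of them brought the adjusted p to 0.05 (WT_1) or 0.0688 (WT_4).

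For *KRT19* and *KRT7*, r was -0.81 (exact permutation p = 0.00773, adjusted 0.0232) and rho was -0.77 (exact permutation p = 0.0214, adjusted 0.0642). It was -0.82 with genotype means subtracted and -0.69 without TE_3 and TE_4 (exact permutation p = 0.0681), and the adjusted p was under 0.05 in 6 of the 9 fits that left out 1 embryo, not without WT_1, WT_4 or TE_4. For the type I chains *KRT18* and *KRT19*, r was 0.74 (exact permutation p = 0.0219, adjusted 0.0438) and rho was 0.70 (exact permutation p = 0.0433, adjusted 0.0865). Without WT_4 and TE_4 it was 0.42 (exact permutation p = 0.335), and the adjusted p was under 0.05 in 2 of the 9 fits that left out 1 embryo (TE_2 or TE_3).

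The other pairs did not pass the adjustment over the 6 pairs. For *KRT8* and *KRT19*, r was 0.48 and rho 0.38 (exact permutation p = 0.186 and 0.313, adjusted 0.186 and 0.313). For *KRT8* and *KRT7*, r was -0.56 and rho -0.50 (exact permutation p = 0.116 and 0.178, adjusted 0.139 and 0.213). For *KRT18* and *KRT7*, r was -0.63 and rho -0.67 (exact permutation p = 0.0698 and 0.0589, adjusted 0.105 and 0.0883). TE_3, with the lowest *KRT8* of the KO embryos and the highest *KRT19* of all, stood apart in these plots. Without it the adjusted p of each of these 3 pairs was under 0.05 (r of 0.72, -0.81 and -0.75). In the 8 other fits that left out 1 embryo, none of these 3 pairs had an adjusted p under 0.05. TPM values of a library share its total, so that they are not independent of each other.

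**Figure D4:**
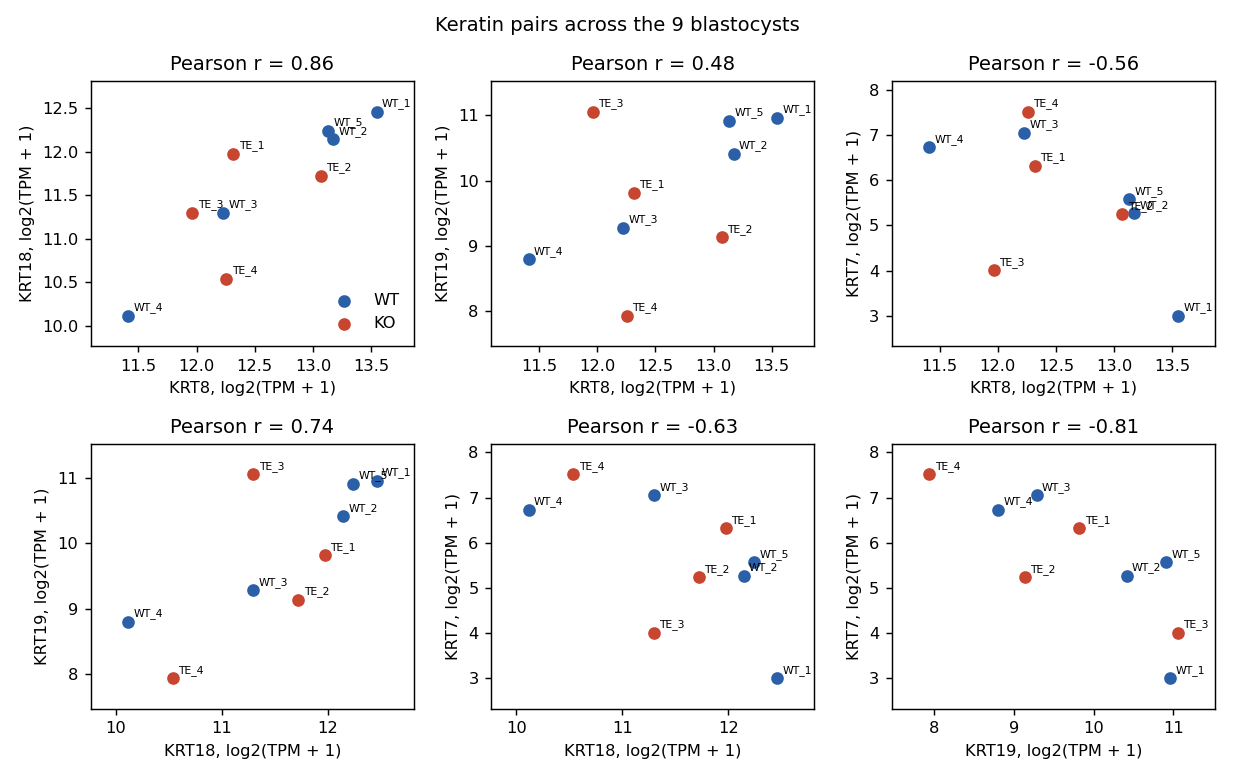
Levels of each pair of keratins as log2(TPM + 1) on both axes, with a point per blastocyst (WT blue, *TEAD4* KO red) and Pearson's r over the 9 embryos above each panel. *KRT8* and *KRT18* lie along a rising line (r = 0.86), and *KRT19* and *KRT7* along a falling one (r = -0.81).

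Embryos with more keratin transcripts tended to have higher TE and lower epiblast marker scores. The mean z-score of *CDX2*, *GATA2*, *GATA3*, *TFAP2C* and *DAB2*, genes of the TE (4 of them also on the list of epithelial transcription factors), had r = 0.75 and rho = 0.72 with the log2 sum of the 4 keratins over the 9 embryos. The score was highest in TE_2 (1.16) and WT_1 (0.69) and lowest in WT_4 (-1.05) and TE_4 (-0.93). As a mean, the score need not follow each of its genes. *TFAP2C* was lower in WT_5 (75.6 TPM, log2 keratin sum 13.9) than in WT_4 (119 TPM) and TE_4 (158 TPM), the embryos with the lowest sums. It was high, however, in WT_1 (157 TPM), which had the highest sum. *CDX2*, *GATA2* and *GATA3* were each higher in WT_5 than in WT_4 and TE_4. The relation of single markers to the sum was not tested. The score of *NANOG*, *SOX2*, *POU5F1*, *SOX15*, *FGF4* and *PRDM14*, genes of the epiblast, had r = -0.68 and rho = -0.73, and was highest in WT_4 (1.23) and lowest in WT_1 (-1.30). With genotype means subtracted, r was 0.76 and -0.72. Without WT_1 and WT_4, r was 0.59 and -0.19, so that the relation to the epiblast score rests on these embryos. No p is given, since the sum runs over chosen genes. In RNA of whole blastocysts, fewer cells of a type and less RNA per cell cannot be told apart, and the part of cell type make-up in the keratin levels was not tested.

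**Figure D5:**
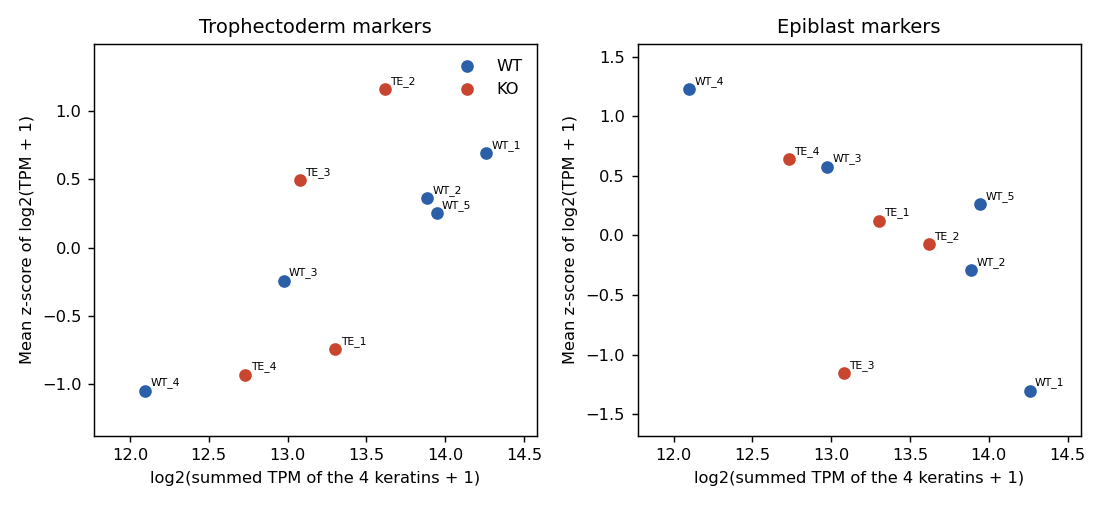
Mean z-score of the TE markers (left, y axis) and of the epiblast markers (right, y axis) against the log2 sum of the 4 keratins (x axis), with a point per blastocyst (WT blue, *TEAD4* KO red). The TE score is higher (r = 0.75) and the epiblast score lower (r = -0.68) at higher keratin levels, with WT_4 and WT_1 at the ends.

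Over all 9 embryos, the r of the keratin sum was nearer 0 with the other 4 measures compared. It was -0.13 with the hypoblast marker score, -0.05 with the level of *VIM*, the intermediate filament gene of mesenchymal cells, -0.21 with the number of genes above 0 TPM and -0.02 with the share of TPM in the 100 most abundant genes. Without WT_1 and WT_4 each of these 4 values had the opposite sign, at 0.50, 0.67, 0.25 and 0.23, and that of *VIM* was then above that of the TE score. With genotype means subtracted over all 9 embryos, r was -0.38, -0.13, -0.45 and -0.06 in the same order.

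The other keratins were scarce. Of 51 further genes with a keratin symbol, 18 were at 0 in every library, 8 passed the filter on low values, and 5 had a median above 1 TPM. *KRT5*, the type II chain of basal epithelial cells, stood at 10.8, 3.57, 54.4, 5.83 and 6.07 TPM in the embryos WT_1 to WT_5, and in TE_1 to TE_4 its level was 22.0, 35.3, 6.71 and 294 TPM. TE_4 and WT_3 were high, and the rest of the genotypes overlapped. Its log2 difference was 1.79 (limma, SE 0.95, adjusted p = 0.884). It was 0.79 when TE_4 was left out and 2.54 when TE_3 was. In TE_4 *KRT5* exceeded *KRT7* and *KRT19*, so that it was the next keratin of that embryo after *KRT8* and *KRT18*.

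*KRT15*, a type I chain of basal cells and a neighbour of *KRT19*, was also highest in TE_4 (22.8 TPM) and, among WT embryos, in WT_3 (7.67 TPM against 1.14 to 1.41 TPM in the other WT embryos). Its log2 difference was 1.10 (limma, SE 0.64, adjusted p = 0.897; 0.46 without TE_4). The WT and KO means of *KRT14*, the usual partner of KRT5 in basal cells, were 2.06 and 1.77 TPM. Those of *KRT10*, a chain of differentiated epidermis, were 6.17 and 4.64 TPM, and those of *KRT80*, a type II chain, 4.07 and 2.28 TPM. Of the 8 tested, 5 had a lower and 3 a higher mean log2 level in KO, with a median log2 difference of -0.05, which is also that of all genes, and which ran from -0.21 without TE_4 to 0.10 without WT_4. None was called by limma and none had an unadjusted p under 0.05, against 0.0205% and 5.90% of all genes, of which 55.8% were lower in KO.

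Of 24 listed genes of desmosomes and hemidesmosomes, plakins and other genes that anchor or organise keratin filaments, 20 passed the filter on low values. Of these 20, 13 had a lower and 7 a higher mean log2 level in KO, against 55.8% of all genes that were lower. The median log2 difference was -0.16 against -0.05 for all genes, and it was -0.06 without TE_1 and -0.34 without TE_2. By limma 0 were called and 2 had an unadjusted p under 0.05, against 0.0205% and 5.90% of all genes. The most abundant were *PERP*, a desmosome-associated membrane protein (383 TPM in WT and 341 TPM in KO), *JUP*, plakoglobin (113 and 128 TPM), *PKP2*, plakophilin 2 (68.7 and 48.3 TPM), and *DSC2*, desmocollin 2. *DSC2* stood at 111, 49.1, 26.3, 14.6 and 75.8 TPM in the embryos WT_1 to WT_5, and in TE_1 to TE_4 its level was 12.9, 22.7, 28.9 and 0.688 TPM. Its WT values had the same order as *KRT19*, and 3 KO embryos lay inside or just below the WT range. The log2 difference of -1.98 (limma, SE 0.80, adjusted p = 0.783; exact permutation test, two-sided, p = 0.0635) did not pass and was -1.07 without TE_4. The other gene with an unadjusted p under 0.05, *PKP1*, plakophilin 1, averaged 8.64 ± 3.93 TPM among WT (SD, n = 5) and 3.87 ± 4.04 TPM among KO embryos (SD, n = 4).

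The listed intermediate filament genes other than keratins had lower levels than the 3 most abundant keratins. Of 15 listed, 13 were tested, 8 with a lower and 5 with a higher mean log2 level in KO, against 55.8% of all genes that were lower. By limma 0 were called and 2 had an unadjusted p under 0.05 (0.0205% and 5.90% of all genes). The median log2 difference was -0.10 against -0.05 for all genes and had no stable sign, at -0.35 without TE_3 and above 0 without TE_1 (0.20), WT_3 (0.084), TE_4 (0.062) or WT_4 (0.0033). The nuclear lamins *LMNA* (82.6 TPM in WT and 79.5 TPM in KO) and *LMNB1* (53.3 and 59.6 TPM) led the list. *PRPH*, peripherin, a filament of peripheral neurons, had a mean of 48.8 ± 50.4 TPM among WT (SD, n = 5) and 10.4 ± 5.10 TPM among KO embryos (SD, n = 4) (log2 difference -1.68, SE 0.63, limma adjusted p = 0.745). *NEFL*, the light neurofilament chain, was at 11.9 ± 7.66 and 26.4 ± 12.0 TPM (log2 difference 1.12, SE 0.43, limma adjusted p = 0.764). Neither passed, and the values of the genotypes overlapped in both.

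All 16 listed genes whose proteins bind, fold or cut simple keratins passed the filter on low values. Of these, 11 had a lower and 5 a higher mean log2 level in KO, against 55.8% of all genes that were lower, with a median log2 difference of -0.06 against -0.05 for all genes. By limma 0 were called (0.0205% of all genes), and 1, *TRADD*, had an unadjusted p under 0.05 (5.90% of all genes), with means of 1.14 and 2.87 TPM in WT and KO. The chaperones *HSPB1* (2936 and 2507 TPM in WT and KO) and *HSPA8* (1792 and 1838 TPM) and the 14-3-3 proteins *YWHAQ* (1346 and 1176 TPM) and *YWHAE* (788 and 807 TPM) were the most abundant. The median difference of this list was -0.17 without TE_2 and above 0 without TE_1 (0.12) or WT_4 (0.0086).

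The list of transcription factors of the TE and other epithelia held 18 genes, among them *ESRP1*, a splicing regulator and not a transcription factor. Of these 18, 17 were tested, *ESRP1* included. The mean log2 level in KO was lower for 12 and higher for 5, against 55.8% of all genes that were lower. The median log2 difference was -0.18 against -0.05 for all genes, and it was -0.30 without TE_2 and -0.05 without TE_4. By limma 0 were called and 2 had an unadjusted p under 0.05, against 0.0205% and 5.90% of all genes. The most abundant were *KLF5* (178 and 167 TPM in WT and KO), *TFAP2C* (116 and 135 TPM), *GATA2* (67.2 and 69.0 TPM) and *KLF6* (58.2 and 61.9 TPM). *TFAP2A*, an AP-2 factor of epithelia, averaged 8.28 ± 3.97 TPM among WT (SD, n = 5) and 2.83 ± 2.03 TPM among KO embryos (SD, n = 4), and *ELF3*, an ETS factor of epithelia, averaged 27.0 ± 7.02 and 14.0 ± 9.16 TPM (adjusted p = 0.745 and 0.813 from limma). Over these 5 lists no tested gene had KO and WT values that did not overlap, against 1.23% of all genes with every KO embryo below and 0.801% with every KO embryo above the WT embryos, shares at which few or no genes of lists this short would be found.

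Among the 11215 other genes with a median above 1 TPM, the pattern over the 9 libraries most like that of *KRT8* was found for *CYB5R1*, a cytochrome b5 reductase, *BTBD6* and *ACSL3*, a long-chain acyl-CoA synthetase (r of 0.97 for each). For *KRT18* these were *CTSZ*, the lysosomal protease cathepsin Z (r = 0.96), *SDF4* (0.96) and *ITM2B* (0.95). For *KRT19* they were *HACD2*, an enzyme of very long chain fatty acid synthesis, *CLN8* and *METRNL* (0.97, 0.97 and 0.96). For *KRT7* they were *FABP3*, a fatty acid binding protein (r = 0.96, at 116 to 720 TPM), *IGFBP2*, a binding protein of insulin-like growth factors (0.96, at 27.6 to 244 TPM), and ENSBTAG00000054224, which has no symbol in the table (0.96). These are the highest of many correlations over 9 libraries and are given as a description. The 4 keratins shared none of these genes, *KRT8* and *KRT18* included.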

How the data were processed

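The authors took RNA from single D8 blastocysts, pseudoaligned the quality-controlled reads and deposited TPM per gene, scaled by transcript length to 1000000 per library. The submitters' processing notes name FastQC, fastp and kallisto, and versions, genome build and annotation are not given in the sources used here. The labels and the study's methods name different RNA and library kits and sequencers. The 9 columns, all used, carry the genotype in their names. Counts cannot be recovered from TPM, so the study's count model was not run, and depth and counting error are unknown.

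The 14599 genes with a median above 0.1 TPM were fitted in limma 3.58.1 (R 4.3.3, eBayes with trend) on log2(TPM + 1), KO minus WT, with Benjamini-Hochberg adjustment, and called at a difference beyond 1 in either direction with an adjusted p under 0.05. Differences are on this scale, which understates those of low genes. The script was tested on simulated data. Single values were compared by exact permutation over embryos. Ranges and figures used Python 3.11.15, numpy 2.4.6, pandas 2.3.3, scipy 1.17.1 and matplotlib 3.10.9. Correlations between keratins were adjusted over 6 pairs; those of the keratin sum, for which a p had been planned, are given without one. The members and lists were chosen with earlier results of these data known. Named were *TEAD4*, the members, other keratins with a median above 1 TPM, the 4 most abundant genes of each list and genes called or without overlap, and the 3 genes most like each member; others were named after their values were seen. Alternatives were other pseudocounts, filters, scalings and weights, and leaving out embryos. No sequence of the members was used here, and RefSeq served for names and neighbours only (17805 of 21512 names matched).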

Additional observations from a re-analysis of the deposited data

Results flagged for a closer look

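In 58 groups of 4 or 5 embryos, 7 held an embryo set apart from the rest of its genotype by Dixon's gap test. The test was run on TPM without a log. Its rate of about 1 in 20 groups by chance holds for values with a normal distribution. Whether TPM has that distribution was not tested, so the 7 cannot be read as more than chance gives. None was a member of the 4 simple keratins. *KRT5* was highest in TE_4 (294 TPM against 6.71 to 35.3 TPM in the other KO embryos) and in WT_3 (54.4 TPM against 3.57 to 10.8 TPM in the other WT embryos). *KRT15* was set apart in WT_3 (7.67 TPM against 1.14 to 1.41 TPM) and *KRT14* in WT_4 (5.63 TPM against 0.727 to 1.64 TPM). *LMNB1* was low in WT_2 (35.3 TPM against 56.7 to 59.4 TPM), *NEFL* high in WT_1 (25.4 TPM against 7.20 to 10.9 TPM) and *KLF5* high in WT_4 (222 TPM against 158 to 171 TPM). The cause of these values was not tested.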

How the results depend on the processing

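No alternative called any of the 4 keratins: over 16 alternative fits the adjusted p was 0.725 or higher. *KRT8* and *KRT19* were lower in KO on average in 16 of 16. With array weights the log2 difference was -0.56 for *KRT8*, -0.64 for *KRT18* and -1.004 for *KRT19*. Leaving out each embryo gave -0.62 to -0.083 for *KRT8*, -1.11 to -0.07 for *KRT19*, -0.65 to 0.013 for *KRT18* (above 0 without TE_4), -0.38 to 0.83 for *KRT7*, and -0.26 to 0.20 for the *KRT8* to *KRT18* log2 ratio, above 0 without WT_4, TE_1 or TE_3. The 3 genes called became 8 with a pseudocount of 0.1 TPM or a median above 1 TPM, 5 with size factors or without trend, 6 after quantile normalization, and 0 to 10 when embryos were left out (limma; 0 without WT_3, WT_4, TE_1, TE_2 or TE_4, 1 without WT_5, 10 without TE_3), with 582 to 1235 genes at an unadjusted p under 0.05.

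The order of levels, taken from the means of the same embryos, had an exact sign-flip p = 0.0625 in WT and 0.125 in KO alone. These are the smallest that 5 and 4 embryos allow. The mean log2 ratios were 1.05 and 1.02, 1.58 and 1.90, and 4.60 and 3.75. Without the 2 farthest embryos, r was 0.69 for *KRT8* and *KRT18*, 0.42 for *KRT18* and *KRT19* and -0.69 for *KRT19* and *KRT7*, and none passed; with size factors the last of these were 0.77 and -0.70 (adjusted p = 0.0520 and 0.0704). Leaving out each embryo, added after seeing the data, gave 0.77 to 0.92, 0.65 to 0.88 and -0.87 to -0.75 for these pairs, 0.35 to 0.72 for *KRT8* and *KRT19*, -0.81 to -0.33 for *KRT8* and *KRT7* and -0.75 to -0.50 for *KRT18* and *KRT7*. The r of the keratin sum without the 2 farthest embryos was 0.25 with genes above 0 TPM, 0.23 with the share of the top genes, 0.50 with hypoblast markers and 0.67 with *VIM*; with size factors it was 0.21 with the share of the top genes and 0.046 with *VIM*. When embryos were left out, the list medians ran from -0.17 to 0.12 for binding, folding and cleavage, -0.35 to 0.20 for other intermediate filaments, -0.21 to 0.10 for other keratins, -0.34 to -0.06 for keratin partners and -0.30 to -0.05 for transcription factors, and the keratin share difference from -0.512 to -0.131 percentage points. Where no value is given for a cause, the cause was not tested.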

Other observations

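TE_4 combined several extremes of the genes above, chosen after their values were seen. It had the lowest *KRT19* and the highest *KRT7*, *KRT5* and *KRT15* of all 9 embryos, and *KRT6A*, a type II chain of stratified epithelia that did not pass the filter on low values, was at 19.4 TPM in it and at 0 to 1.31 TPM in the other embryos. It also had the lowest *DSC2* (0.688 TPM), *PKP1* (0.180 TPM), *TFAP2A* (0.321 TPM) and *ELF3* (2.62 TPM). WT_3, the other embryo with high *KRT5*, had *DSC2* at 26.3 TPM and *ELF3* at 29.8 TPM.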
